A study of Mus musculus with 13 samples.

Results

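The 35 genes described here encode the glucose and lactate transporters, the enzymes of glycolysis and the genes of the cellular response to low oxygen. They were chosen by name, with no value of these data in the rule, but with earlier results of these data known. All 35 were found among the 55332 genes with values in the deposited table. By role they are 4 transporters, 11 enzymes and regulators of upper glycolysis, 9 of lower glycolysis and the fate of pyruvate, 4 oxygen-sensing genes and 7 other genes of the hypoxia response. Each of the 35 had at least 10 estimated counts in every tumor, the lowest value being 29 counts of Adm in oral WT tumor 2, so that none was removed by the filter on low counts.

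RNA was sequenced from 13 tumors of a mouse model of NUT carcinoma, an aggressive squamous cancer. In the NCT (NUT carcinoma translocator) allele, which all tumors carried as NCT+/-, Cre recombinase brings about the chromosome exchange that starts the tumor, in the WT as in the KO tumors. The 4 oral Sox2 WT tumors carried KRT14-Cre, which is active in basal cells of stratified epithelium, and the 4 pancreatic Sox2 WT tumors carried Pdx1-Cre, which is active in pancreatic progenitors. The 3 pancreatic Sox2 KO tumors carried Pdx1-Cre with Sox2 fl/fl. The 2 oral Sox2 KO tumors carried Sox2 fl/fl with a driver that their labels write as KRT4Cre, where the study's methods name KRT14-Cre. Site and Cre driver therefore differ together and cannot be told apart. The labels give no ages, and they do not say whether the tumors came from separate mice, so that p-values measure the spread between these tumors.

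Glycolysis splits glucose into pyruvate in the cytosol, and many tumors turn the pyruvate into lactate and export it even when oxygen is present. When oxygen is low, the prolyl hydroxylases encoded by the Egln genes no longer mark the HIF alpha subunits for destruction. HIF then binds a short DNA core, A or G followed by CGTG, and raises transporters, glycolytic enzymes and genes for acid handling, mitochondrial removal and blood vessel tone.

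Total estimated counts were 29394258 to 40420228 in the oral WT tumors, 11735315 and 20432164 in the oral KO tumors, 40964533 to 46134830 in the 4 pancreatic WT libraries and 89562790 to 120482829 in those of the pancreatic KO tumors. Sox2 had 410 to 680 counts in the oral WT and 1111 to 1487 in the pancreatic WT tumors, against 0 or 1 and 0 to 2 in the KO tumors. Oral KO tumor 1 stood apart with 59.5% of its counts in protein-coding genes, where the other 12 tumors had 84.5% to 91.7%. The squamous tumor markers Trp63, Krt5, Krt14, Krt6a, Dsg3 and Myc were detected at both sites, at a summed 4114 to 9159 CPM (counts scaled to a common library size) in the oral and 10842 to 18938 CPM in the pancreatic tumors. Levels below are CPM after TMM scaling over all 13 tumors, given in the order of the tumor numbers. A gene was called where its adjusted p was under 0.05 in edgeR's quasi-likelihood test, Benjamini-Hochberg adjusted over all genes tested.

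Most calls lay between the sites. Between oral WT and pancreatic WT tumors, 25 of the 35 genes were lower in the oral tumors and 3 were higher, against 11.6% of all 23164 genes tested that were called lower and 12.1% called higher. The 25 held 9 genes of upper glycolysis, 7 of the 7 other hypoxia genes, 6 genes of lower glycolysis, 2 transporters and 1 oxygen sensor. The 3 higher genes were Slc2a3, Pfkm and Ldhb. Past a 2-fold difference as well, 22 were lower and 2 higher, against 7.24% and 9.3% of all genes. The median log2 fold change of the 35 genes, oral against pancreatic, was -1.26, and over all genes tested it was 0.0046. In 25 of the 35 genes all 4 oral tumors lay below all 4 pancreatic tumors, and in 3 they lay above, against 13.8% and 14.2% of all genes. In bulk tumors, fewer cells of a type and less RNA per cell cannot be told apart.

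**Figure D1:**
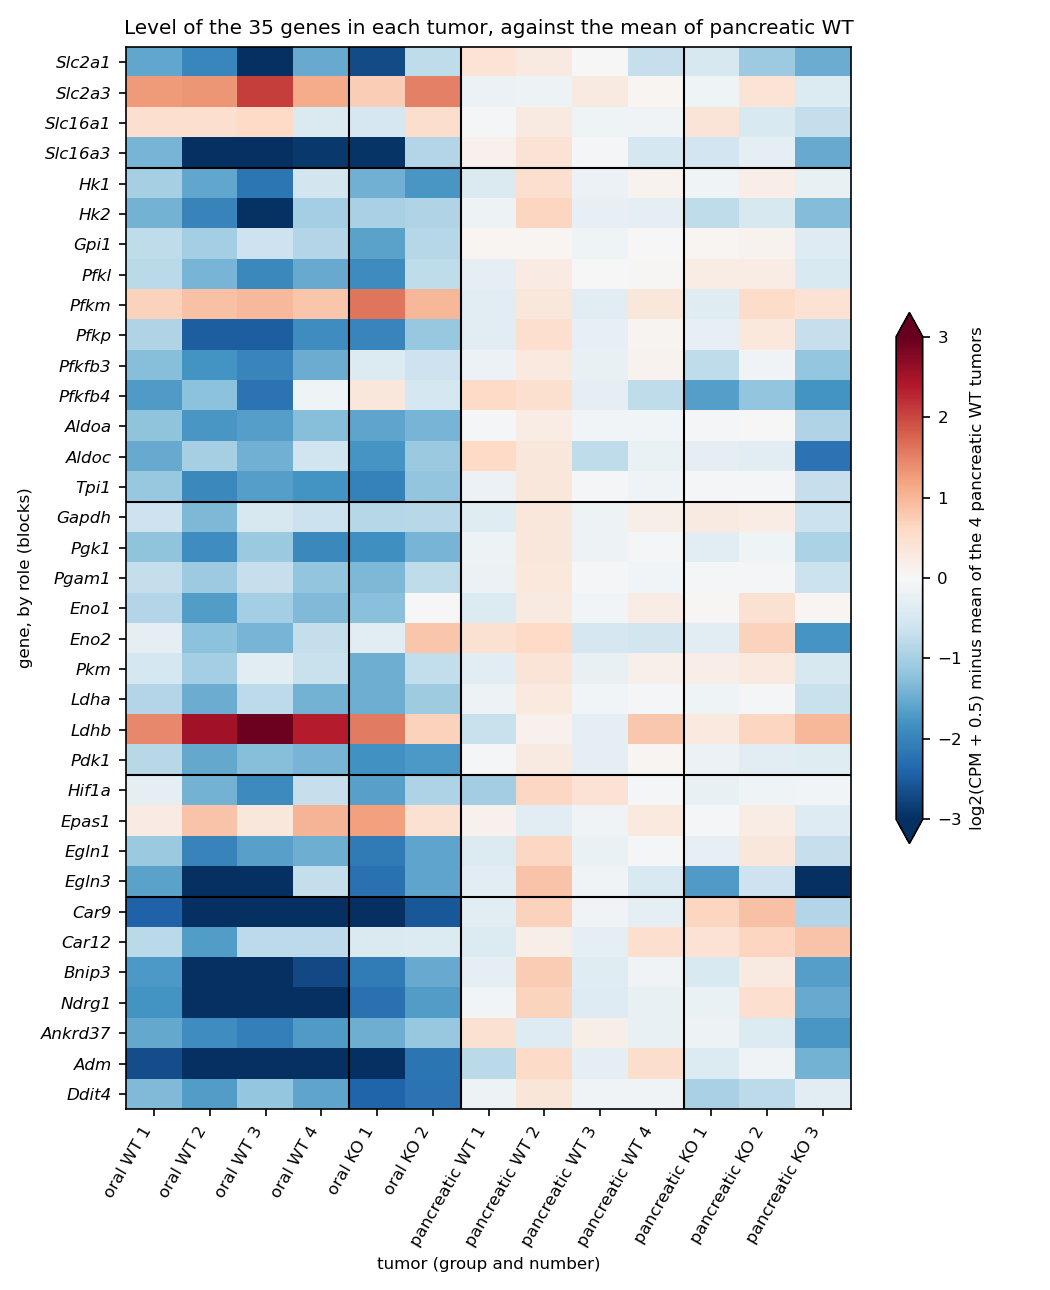
Heat map of log2(CPM + 0.5) of each of the 35 genes (rows, italic) in each of the 13 tumors (columns), minus the mean of the 4 pancreatic WT tumors, with black lines between groups and between roles. Blue is below and red above that mean, and the color is saturated past 3 on the log2 scale. Between 30 and 31 of the 35 genes are below the mean in each oral WT tumor, and Slc2a3, Pfkm and Ldhb stand out as red rows.

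The tumors also differed between sites in cell types other than the tumor cell. Summed over 10 fibroblast markers, the level was 9546 to 19927 CPM in the oral WT and 1251 to 2423 CPM in the pancreatic WT group, and 9 of the 10 were called higher in the oral tumors. Of the 6 squamous tumor markers, 4 were called lower in the oral WT tumors. Of 20 skeletal muscle markers, 16 were tested and 6 were called higher in the oral WT tumors, where they summed to 24.8 to 41.3 CPM in 3 tumors and 665 CPM in tumor 4, against 13.5 to 16.7 CPM in the pancreatic WT tumors. The 6 adipocyte markers summed to 124 to 590 CPM in the oral WT and 1492 to 2969 CPM in the pancreatic WT group. Nearly all of that sum was Fabp4, so that it follows 1 gene. Lpl, the next in level, went the other way (12.1 to 23.4 and 5.59 to 13.2 CPM). Of the 4 adipocyte markers tested, 1 was called lower. At an unadjusted p under 0.05, and also by DESeq2, 1 was higher and 1 lower. The summed ranges overlapped between the sites for myeloid markers (278 to 604 and 461 to 691 CPM), of which 3 of 12 were called lower, and for endothelial markers (133 to 233 and 140.3 to 195 CPM), of which 2 of 10 were called higher and 1 lower. They also overlapped for pancreatic acinar markers (3.38 to 18.4 and 5.25 to 16.7 CPM), of which 1 of 8 was called in each direction, and for red blood cell markers (0.154 to 4.39 and 4.36 to 9.44 CPM), of which edgeR called 0 of 6, with 3 lower at an unadjusted p under 0.05 and 1 by DESeq2. No list had a marker at 0 in all WT tumors of a site but the acinar list, with 1 in the oral tumors. The part of these cell types in the differences between sites was not tested.

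Of the 4 transporters, 2 were lower and 1 higher in the oral WT tumors. Slc2a1 (ENSMUSG00000028645, chr4:119108711-119137983, plus strand, positions on GRCm38), which encodes the glucose transporter GLUT1, was at 406, 312, 109.8 and 425 CPM in oral WT tumors 1 to 4 and at 1612, 1446, 1221 and 746 CPM in pancreatic WT tumors 1 to 4. Every oral value lay below every pancreatic value, and the gene was 4.00-fold lower in the oral tumors (log2 fold change -2.0018, SE 0.42, adjusted p = 0.0108). Slc16a3, the lactate exporter MCT4, was at 117, 22.0, 21.03 and 41.4 CPM in the oral WT and 341, 417, 299 and 217 CPM in the pancreatic WT tumors. It was 6.30-fold lower with no overlap (log2 fold change -2.66, SE 0.57, adjusted p = 0.0116), and oral tumor 1 was the highest of its group. Slc2a3, the high-affinity glucose transporter GLUT3, went the other way, at 11.4, 11.9, 20.2 and 10.2 CPM in the oral WT and 3.88, 3.93, 5.40 and 4.63 CPM in the pancreatic WT tumors. All 4 oral values were higher (log2 fold change 1.58, SE 0.26, adjusted p = 0.00366). Slc16a1, which encodes the monocarboxylate transporter MCT1, was at 83.0 to 170.1 CPM in the oral WT and 103.0 to 136 CPM in the pancreatic WT tumors, ranges that overlap (adjusted p = 0.288).

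In upper glycolysis, 9 of 11 genes were lower in the oral WT tumors and 1 was higher. The hexokinases phosphorylate glucose as it enters the cell. Hk1 was at 93.0, 62.7, 40.4 and 126 CPM in the oral WT and 137, 261, 162 and 199 CPM in the pancreatic WT tumors (log2 fold change -1.23, SE 0.35, adjusted p = 0.0342). Hk2, the isoform that HIF and insulin raise, was at 59.5, 39.8, 20.1 and 79.2 CPM and 145, 254, 136 and 133 CPM (log2 fold change -1.75, SE 0.41, adjusted p = 0.0165). Neither hexokinase had overlapping groups, but the call of Hk1 was lost without oral tumor 1 (adjusted p = 0.056) or tumor 2 (0.0881) and without pancreatic tumor 2 (0.0856), tumor 3 (0.06) or tumor 4 (0.0694). Gpi1, the next enzyme, was at 366, 309.9, 403 and 342 CPM against 655, 655, 574 and 618 CPM, and was 1.76-fold lower (adjusted p = 0.00282).

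Phosphofructokinase, which commits sugar to glycolysis, is built from liver, platelet and muscle subunits that are encoded by separate genes. The liver subunit gene Pfkl was at 138, 92.6, 63.3 and 85.1 CPM in the oral WT and 198, 289.5, 244 and 251 CPM in the pancreatic WT tumors (log2 fold change -1.37, SE 0.23, adjusted p = 0.00402). The platelet subunit gene Pfkp was at 135, 45.6, 45.6 and 69.9 CPM and 200.3, 364, 214 and 269 CPM (log2 fold change -1.82, SE 0.38, adjusted p = 0.0105). Both were lower in all oral tumors. The muscle subunit gene Pfkm was higher in all oral tumors, at 20.8, 23.7, 25.2 and 23 CPM against 9.89, 16.2, 9.87 and 16.02 CPM (log2 fold change 0.84, SE 0.20, adjusted p = 0.0183). Skeletal muscle markers summed to 665 CPM in oral WT tumor 4 and to 6058 and 3373 CPM in oral KO tumors 1 and 2, where Pfkm was at 39.1 and 25.6 CPM, above every WT tumor. Their part in the level of Pfkm was not tested. Without pancreatic WT tumor 1 or tumor 3 the adjusted p of Pfkm was 0.0504 or 0.0524.

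Pfkfb3 and Pfkfb4 encode bifunctional enzymes that make and remove the sugar phosphate that activates phosphofructokinase. Pfkfb3 (ENSMUSG00000026773, chr2:11471433-11554077, minus strand) was at 28.1, 19.6, 17.1 and 24.1 CPM in the oral WT and 61.4, 84.1, 59.4 and 73.9 CPM in the pancreatic WT tumors, 3.13-fold lower with no overlap (log2 fold change -1.65, SE 0.19, adjusted p = 0.00103). Pfkfb4 (ENSMUSG00000025648, chr9:108991778-109032228, plus strand) was at 6.16, 8.84, 4.18 and 19.5 CPM and 32.5, 29.7, 17.1 and 12.3 CPM, and was not called (log2 fold change -1.24, SE 0.50, adjusted p = 0.11). Its groups overlapped through oral tumor 4, the highest oral value, and without that tumor the log2 fold change was -1.84 (adjusted p = 0.0121).

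The aldolases and triose phosphate isomerase make and interconvert the triose phosphates. Aldoa, the aldolase of most tissues, was at 534, 368, 394 and 512 CPM in the oral WT and 1178, 1451, 1176 and 1161 CPM in the pancreatic WT tumors (log2 fold change -1.46, SE 0.17, adjusted p = 0.00104). Tpi1 was at 322, 185, 224 and 202 CPM and 623, 897, 682 and 652 CPM (log2 fold change -1.61, SE 0.21, adjusted p = 0.00139). Both were lower in every oral tumor, by 2.75-fold and 3.06-fold. Aldoc, an aldolase best known from brain, was at 7.39, 10.8, 7.89 and 14.4 CPM and 33.9, 28.3, 12.97 and 19.4 CPM (log2 fold change -1.22, SE 0.33, adjusted p = 0.0276). It was called although oral tumor 4 lay above pancreatic tumor 3, and the call was lost without oral tumor 1, 2 or 3 (adjusted p = 0.0661, 0.0603 and 0.07) and without pancreatic tumor 1 or 2 (0.0785 and 0.0693).

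**Figure D2:**
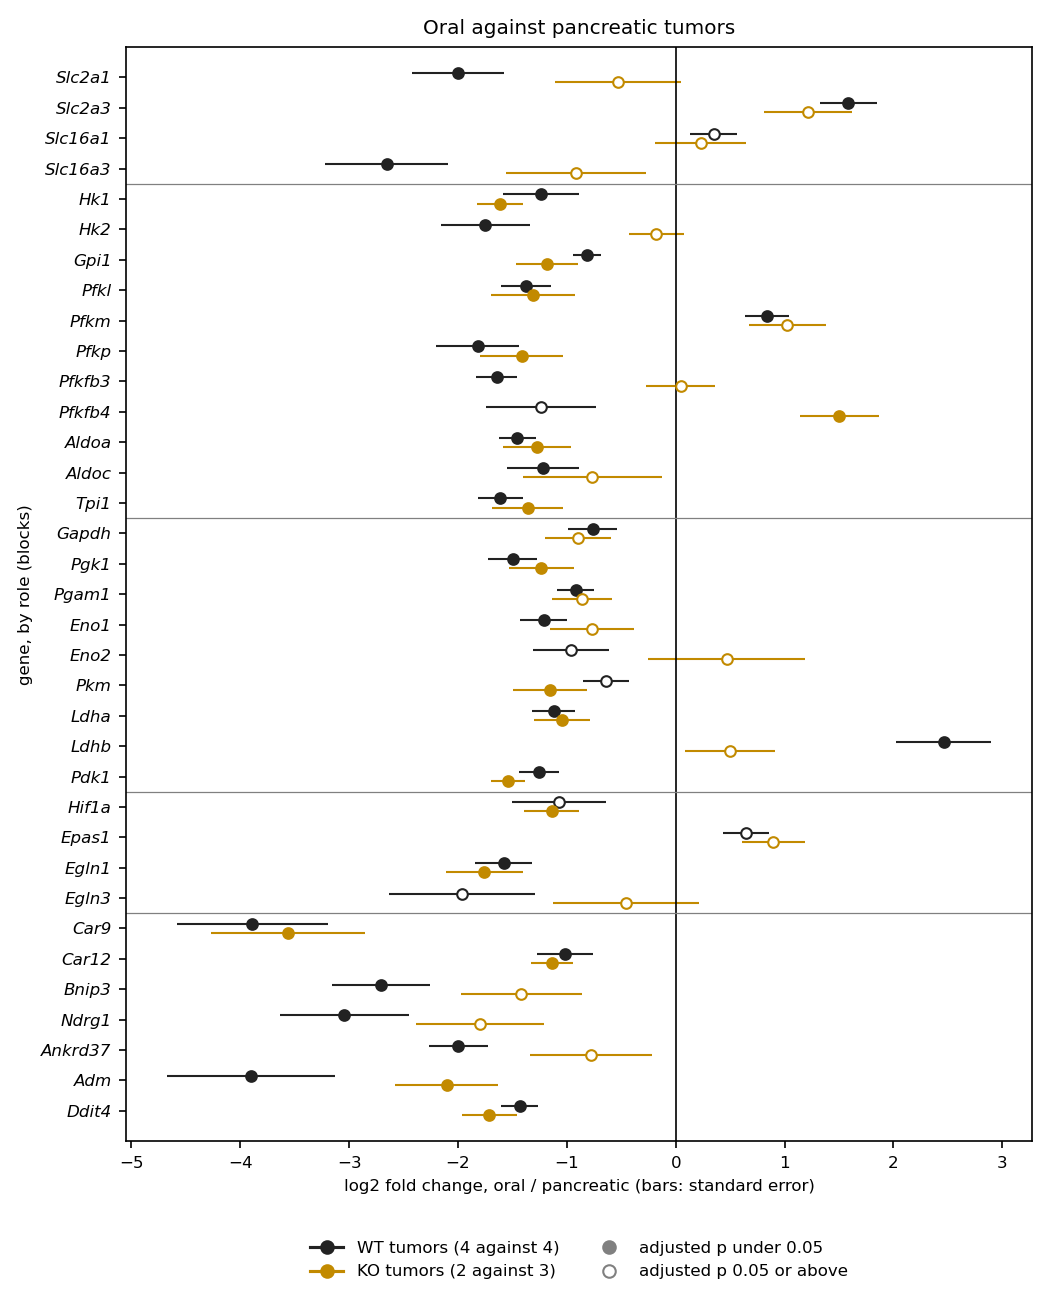
Log2 fold change of each of the 35 genes, oral against pancreatic (horizontal axis, bars are standard errors), in WT tumors (black, 4 against 4) and KO tumors (gold, 2 against 3), with filled points where the adjusted p was under 0.05. In WT tumors the changes run from -3.90 (Adm) to 2.46 (Ldhb), and 25 filled black points lie to the left of 0 and 3 to the right.

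In lower glycolysis and at pyruvate, 6 of 9 genes were lower in the oral WT tumors and 1 was higher. Gapdh was at 594, 358, 658 and 579.6 CPM in the oral WT and 708, 1156, 824 and 1025 CPM in the pancreatic WT tumors (log2 fold change -0.76, SE 0.22, adjusted p = 0.0381). Pgk1, which makes the first ATP of the pathway, was at 345, 222, 373 and 209 CPM and 721, 1015, 722 and 789 CPM (log2 fold change -1.4973, SE 0.23, adjusted p = 0.00258). The oral values of both lay below all pancreatic values, by 1.69-fold for Gapdh and 2.82-fold for Pgk1. The call of Gapdh was lost without oral tumor 1, 2 or 4 (adjusted p = 0.0618, 0.0729 and 0.0543) and without pancreatic tumor 2, 3 or 4 (0.0993, 0.0649 and 0.0973). Pgam1, the phosphoglycerate mutase, was at 399, 306, 406 and 289.8 CPM and 581, 817, 631 and 615 CPM (log2 fold change -0.92, SE 0.17, adjusted p = 0.00585). Eno1, the enolase of most tissues, was at 392, 223, 356 and 287 CPM and 544, 861, 682 and 836 CPM (log2 fold change -1.21, SE 0.22, adjusted p = 0.00496). Neither had overlapping groups. The neuronal enolase gene Eno2 (8.17 to 18.2 and 15.3 to 34.0 CPM, adjusted p = 0.0795) and the pyruvate kinase gene Pkm (674 to 1085 and 1083 to 1789 CPM, adjusted p = 0.0546) had lower estimates in the oral tumors that did not pass the test.

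At the branch point of pyruvate, Ldha and Ldhb moved apart. They encode the A and B subunits of lactate dehydrogenase, of which A favors making lactate and B favors using it. Ldha was at 575, 379, 611 and 394 CPM in the oral WT and 947, 1305, 1003 and 1012 CPM in the pancreatic WT tumors, 2.18-fold lower with no overlap (log2 fold change -1.12, SE 0.20, adjusted p = 0.00505). Ldhb was at 9.58, 20.5, 28.1 and 18.4 CPM and 1.84, 3.54, 2.53 and 5.99 CPM, 5.51-fold higher with no overlap (log2 fold change 2.46, SE 0.43, adjusted p = 0.00499). Pdk1, the kinase that keeps pyruvate out of the mitochondrial dehydrogenase, was at 118, 72.5, 87.7 and 80.1 CPM and 203, 255, 177 and 222 CPM. It was lower in all oral tumors (log2 fold change -1.26, SE 0.18, adjusted p = 0.00213).

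Of the oxygen-sensing genes only Egln1 was called, and it was lower in the oral WT tumors. Egln1, the main prolyl hydroxylase of HIF, was at 113, 60.9, 79.5 and 88.8 CPM in the oral WT and 187, 382, 215 and 241 CPM in the pancreatic WT tumors (log2 fold change -1.58, SE 0.26, adjusted p = 0.00388). Egln3, a hydroxylase that is itself raised by HIF, was at 229, 59.1, 55.8 and 425 CPM and 567, 1276, 654 and 509 CPM. Its groups did not overlap but its spread was wide, and it did not pass (log2 fold change -1.96, SE 0.67, adjusted p = 0.0664). Without oral tumor 4, its highest oral value, the log2 fold change was -2.71 (adjusted p = 0.0122). Hif1a, the alpha subunit of HIF that most cells use, was at 597, 275, 194 and 449.7 CPM and 357, 1128, 992 and 718 CPM. The groups overlapped through pancreatic tumor 1 (log2 fold change -1.07, SE 0.43, adjusted p = 0.105), and without that tumor the log2 fold change was -1.30 (adjusted p = 0.0477). Epas1, which encodes the alpha subunit best known from endothelium, was at 47.2 to 81.6 CPM in the oral WT and 31.7 to 48.8 CPM in the pancreatic WT tumors, with an estimate in the opposite direction that was not called (log2 fold change 0.64, adjusted p = 0.056).

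The other hypoxia genes held the 4 largest differences, and all 7 were lower in the oral WT tumors. Adm, the vasodilator peptide adrenomedullin, was at 8.81, 0.893, 1.08 and 6.02 CPM in the oral WT and 33.6, 87.2, 48.1 and 84.6 CPM in the pancreatic WT tumors, 14.9-fold lower (log2 fold change -3.90, SE 0.77, adjusted p = 0.00849). Car9, a carbonic anhydrase on the cell surface that handles the acid of glycolysis, was at 14.2, 1.60, 3.80 and 2.48 CPM and 63.3, 127, 73.7 and 65.1 CPM, 14.8-fold lower (log2 fold change -3.89, SE 0.69, adjusted p = 0.00559). Oral tumor 1 had the highest oral value of both genes and still lay below every pancreatic tumor. Ndrg1, a cytoplasmic protein induced by stress and low oxygen, was at 338, 88.4, 48.2 and 115 CPM and 1104, 1862, 894 and 1006 CPM (log2 fold change -3.04, SE 0.59, adjusted p = 0.0079). Bnip3, a mitochondrial outer membrane protein that brings about removal of mitochondria, was at 77.9, 25.7, 22.0 and 39.2 CPM and 211, 433, 199 and 238 CPM (log2 fold change -2.71, SE 0.45, adjusted p = 0.00425). For both, the highest oral value was again tumor 1 and the highest pancreatic value tumor 2, and the groups did not overlap.

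The remaining hypoxia genes differed by less. Ankrd37, which encodes an ankyrin repeat protein, was at 3.00, 2.28, 1.93 and 2.62 CPM in the oral WT and 13.3, 7.16, 10.8 and 8.11 CPM in the pancreatic WT tumors (log2 fold change -1.9987, SE 0.27, adjusted p = 0.00176). Ddit4 (ENSMUSG00000020108, chr10:59949669-59951834, minus strand), a stress-induced inhibitor of the growth kinase mTORC1, was at 87.3, 68.4, 97.4 and 73.0 CPM and 195, 281, 202 and 204 CPM (log2 fold change -1.43, SE 0.17, adjusted p = 0.00104). Car12, another surface carbonic anhydrase, was at 96.9, 53.5, 99.4 and 100.04 CPM and 128, 195, 143 and 242 CPM (log2 fold change -1.01, SE 0.26, adjusted p = 0.0219). In all 3 the groups did not overlap, and the Car12 call was lost without pancreatic tumor 2 (adjusted p = 0.054) or tumor 4 (adjusted p = 0.0584).

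Sequences upstream of these genes were read for the HIF core. The list was made of hypoxia response genes and of glycolysis genes, kinds that HIF raises. A share of the core above that of all genes is therefore no independent result and does not bear on the difference between sites. The windows were 300 bases around the RefSeq start of each gene on GRCm38.p6, 250 before and 50 after it, and 45 windows matched 32 of the 35 genes. There was no entry for Slc2a3, Epas1 and Ndrg1. ACGTG or GCGTG on either strand was found in 36 of the 45 windows (80%), against 43.8% of all 32851 windows of that length, and in 28 of the 32 genes (87.5%), against 46.7% of 27025 genes. The 32 genes held ACGTG in 21 and GCGTG in 20. The windows of these genes had a median of 61.3% G and C, against 52.7% over all windows, and both motifs contain CG. Of the 24 matched genes that were lower in the oral WT tumors, 21 held a motif, as did the 2 matched genes that were higher and 5 of the 6 that were not called. A match is a description of the letters and not evidence of binding.

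Windows of 5 genes that were lower in the oral WT tumors are shown, 3 of the hypoxia response and 2 of glycolysis, with that of Ldhb, which was higher. Capitals mark ACGTG and GCGTG, also where they are read on the other strand as CACGT or CACGC, and in CACGTG both strands match. All are written 5′ to 3′ on the strand of the gene. Bnip3 (chr7:138909457-138909756, minus strand) had 2 ACGTG and 3 GCGTG matches, Ankrd37 (chr8:45999801-46000100, minus strand) had 2 and 2, and Car9 (chr4:43506776-43507075, plus strand) had 1 and 0. Of the glycolytic genes, Ldha (chr7:46845554-46845853, plus strand) had 5 and 2, the most ACGTG of any window here, and Pgk1 (chrX:106186850-106187149, plus strand) had 2 and 0. Ldhb (chr6:142507908-142508207, minus strand) had 0 and 1. These windows are a selection and do not stand for the lower and higher genes. The windows of Pfkm, the other matched gene that was higher, had 0 to 3 ACGTG and 0 or 1 GCGTG matches. Those of the lower genes Gpi1, Tpi1 and Car12 had 0 and 0.
Bnip3: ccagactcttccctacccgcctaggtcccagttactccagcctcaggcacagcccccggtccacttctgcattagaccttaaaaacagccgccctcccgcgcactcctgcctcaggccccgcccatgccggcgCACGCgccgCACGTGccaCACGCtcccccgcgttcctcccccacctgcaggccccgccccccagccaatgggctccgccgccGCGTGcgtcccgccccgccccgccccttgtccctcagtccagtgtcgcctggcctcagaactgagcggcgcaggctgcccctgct
Ankrd37: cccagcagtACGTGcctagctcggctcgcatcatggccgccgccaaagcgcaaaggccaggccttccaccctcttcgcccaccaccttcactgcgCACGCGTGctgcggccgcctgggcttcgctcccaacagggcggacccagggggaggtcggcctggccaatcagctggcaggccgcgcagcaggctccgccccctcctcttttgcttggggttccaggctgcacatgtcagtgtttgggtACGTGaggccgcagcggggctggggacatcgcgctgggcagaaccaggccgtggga
Car9: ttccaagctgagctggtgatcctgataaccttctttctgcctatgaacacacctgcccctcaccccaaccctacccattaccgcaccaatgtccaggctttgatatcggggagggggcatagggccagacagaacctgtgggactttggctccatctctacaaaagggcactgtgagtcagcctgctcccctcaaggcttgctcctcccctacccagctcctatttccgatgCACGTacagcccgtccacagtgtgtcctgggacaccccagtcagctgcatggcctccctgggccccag
Ldha: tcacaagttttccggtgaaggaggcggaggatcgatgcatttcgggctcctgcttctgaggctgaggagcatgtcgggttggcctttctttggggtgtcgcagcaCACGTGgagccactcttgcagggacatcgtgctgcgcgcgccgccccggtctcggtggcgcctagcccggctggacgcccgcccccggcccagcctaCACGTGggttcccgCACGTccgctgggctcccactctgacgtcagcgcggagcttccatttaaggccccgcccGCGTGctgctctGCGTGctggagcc
Pgk1: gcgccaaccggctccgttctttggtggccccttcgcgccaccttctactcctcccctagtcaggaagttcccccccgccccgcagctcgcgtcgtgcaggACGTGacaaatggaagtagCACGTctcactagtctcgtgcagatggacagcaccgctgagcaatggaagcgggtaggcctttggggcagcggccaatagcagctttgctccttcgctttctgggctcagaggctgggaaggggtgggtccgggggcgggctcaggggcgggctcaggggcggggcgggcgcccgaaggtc
Ldhb: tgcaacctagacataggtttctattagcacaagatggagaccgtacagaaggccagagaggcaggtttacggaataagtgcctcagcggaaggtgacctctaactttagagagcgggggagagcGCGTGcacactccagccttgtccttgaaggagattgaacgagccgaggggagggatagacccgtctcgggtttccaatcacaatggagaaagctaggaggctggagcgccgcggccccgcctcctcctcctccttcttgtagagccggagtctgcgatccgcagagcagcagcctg

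Within gene families the balance between members was measured as shares of the family's summed CPM per kb of exon. The shares are computed from the levels given above, so that a difference in them between sites is no further result. The size of a share depends on the exon lengths used, such as 3340 bases for Pfkm, 6675 for Pfkl and 13401 for Pfkp. The Ldhb share of Ldha and Ldhb together was 3.39, 10.2, 8.82 and 8.95% in oral WT tumors 1 to 4 and 0.407, 0.5683, 0.529 and 1.23% in pancreatic WT tumors 1 to 4. The Pfkm share of the 3 phosphofructokinase genes was 16.9, 29.1, 36.9 and 27.7% and 6.22, 6.42, 5.32 and 7.67%. Both shares were higher in all 4 oral tumors, and in oral tumor 1, which had the highest levels of several hypoxia genes among the oral WT tumors, both were the lowest of the group. The Slc16a3 share of Slc16a1 and Slc16a3 was 37.9, 10.3, 9.33 and 29.3% and 72.5, 71.9, 70.7 and 63.6%, so that the exporter MCT4 was the larger part in every pancreatic and the smaller part in every oral WT tumor. Slc2a1 stayed the major glucose transporter gene throughout, with Slc2a3 at 1.14% to 8.19% of the pair in the oral WT and 0.116% to 0.2997% in the pancreatic WT tumors. The shares of Aldoc (1.22% to 2.55% and 0.974% to 2.50%) and Eno2 (2.56% to 5.07% and 2.04% to 6.08%) in their families overlapped between the sites. So did those of Pfkfb4 beside Pfkfb3 (25.4% to 55.6% and 20.5% to 45.1%) and Epas1 beside Hif1a (7.70% to 21.7% and 2.88% to 11.45%). The Hk2 share of the hexokinases did not (41.5% to 47.8% and 48.8% to 60.3%).

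**Figure D3:**
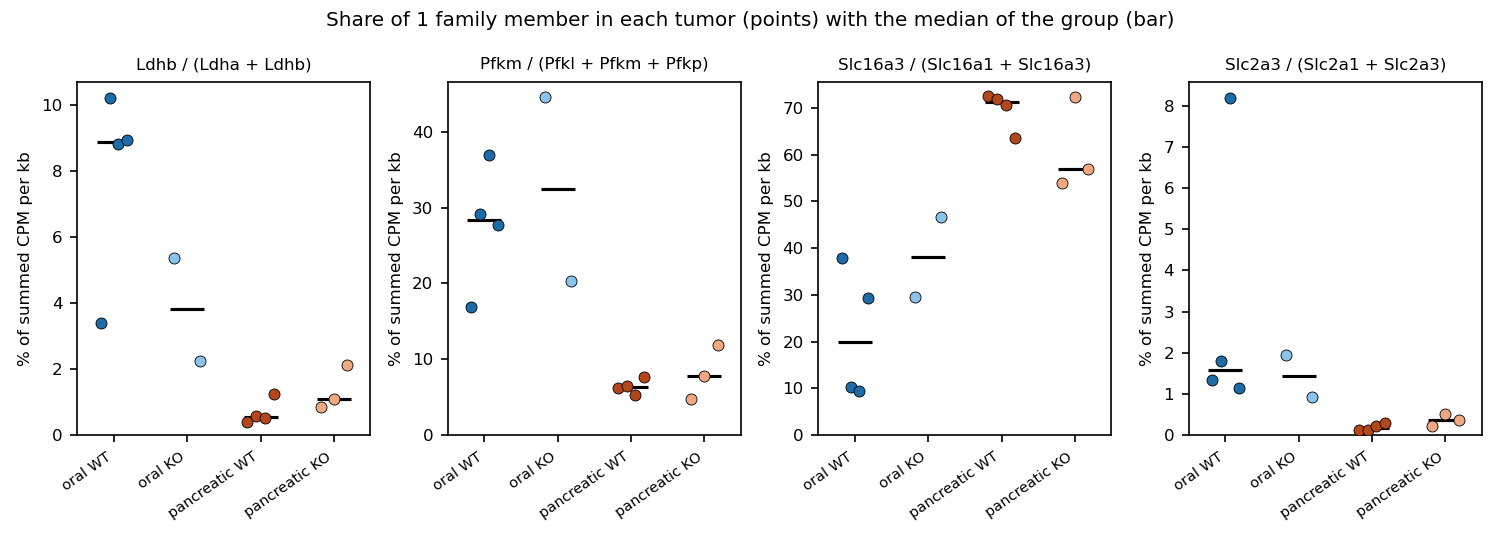
Share of Ldhb, Pfkm, Slc16a3 and Slc2a3 in the summed CPM per kb of the named family (vertical axes, percent) in each tumor of the 4 groups (points), with the median of the group as a bar. The oral WT points lie above the pancreatic WT points for Ldhb, Pfkm and Slc2a3 and below them for Slc16a3.

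The KO tumors gave a second comparison of the sites, added after the data were seen, with 2 oral and 3 pancreatic tumors. Of the 35 genes, 16 were lower in the oral KO tumors and 1, Pfkfb4, was higher, against 16.3% and 15.3% of the genes tested. The 16 lower genes were Hk1, Gpi1, Pfkl, Pfkp, Aldoa, Tpi1, Pgk1, Pkm, Ldha, Pdk1, Hif1a, Egln1, Car9, Car12, Adm and Ddit4, and the median log2 fold change of the 35 genes was -1.05. The level of Car9 was 4.77 and 13.2 CPM in oral KO and 123, 146 and 42.7 CPM in pancreatic KO tumors (log2 fold change -3.56, SE 0.71, adjusted p = 0.0177). Ddit4 was at 40.7 and 46.9 CPM and 111, 127 and 176 CPM (log2 fold change -1.71, SE 0.25, adjusted p = 0.00926). Both were lower at the oral site in WT and KO tumors. Pdk1 was at 60.3 and 63.9 CPM and 189, 167 and 164 CPM, the smallest adjusted p of the 35 genes (log2 fold change -1.54, SE 0.16, adjusted p = 0.00581). Pfkfb4 was at 27.1 and 14.7 CPM and 6.48, 9.08 and 5.76 CPM, higher in both oral tumors (log2 fold change 1.5003, SE 0.36, adjusted p = 0.027). Of the genes not called, Ndrg1 (log2 fold change -1.80), Bnip3 (-1.42) and Slc2a3 (1.22) had the largest estimates. The transporter Slc2a1 was at 188 and 711 CPM and 872, 570.2 and 431 CPM, and the groups overlapped (log2 fold change -0.53, SE 0.58, adjusted p = 0.498). Fibroblast markers summed to 10204 and 10383 CPM in the oral KO and 2356 to 3978 CPM in the pancreatic KO tumors, and their part was not tested. Skeletal muscle markers summed to 6058 and 3373 CPM in oral KO tumors 1 and 2 and 13.5 to 17.6 CPM in the pancreatic KO tumors, and their part was not tested either.

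Loss of Sox2 in the oral tumors was compared next, to ask how the KO tumors differ from WT tumors of the same site. Only 2 of the 35 genes were called. Pfkfb3 was higher and Ddit4 was lower in the oral KO tumors, against 9.2% of all 22342 genes tested that were called higher and 4.58% called lower. Pfkfb3 was at 28.1, 19.6, 17.1 and 24.1 CPM in the WT and 51.5 and 44.8 CPM in the KO tumors, 2.29-fold higher with no overlap (log2 fold change 1.20, SE 0.24, adjusted p = 0.0268). Ddit4 was at 87.3, 68.4, 97.4 and 73.0 CPM in the WT and 40.7 and 46.9 CPM in the KO tumors, 1.77-fold lower with no overlap (log2 fold change -0.82, SE 0.22, adjusted p = 0.0472). The median log2 fold change of the 35 genes was 0.12, against -0.0030 over all genes and -0.21 over protein-coding genes, and 20 of the 35 estimates were positive. Past 2-fold as well, 1 gene was higher and 0 lower, against 8.81% and 2.89% of all genes.

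Both calls depended on single tumors and on the genes tested. With protein-coding genes alone, which changes the genes tested and the scaling together and moved the median of the 35 genes to 0.31, Pfkfb3 had a log2 fold change of 1.38 and Ddit4 of -0.63, and neither was called. Both calls were also lost without oral WT tumor 1, oral WT tumor 2, oral KO tumor 1 or oral KO tumor 2, and Ddit4 alone was lost without oral WT tumor 3 or 4. In that order of tumors, the adjusted p of Pfkfb3 was 0.0521, 0.0785, 0.103 and 0.0902. That of Ddit4 was 0.0969, 0.0849, 0.168 and 0.143, and without oral WT tumor 3 or 4 it was 0.0611 or 0.0522. Over the 14 alternatives, the adjusted p of Pfkfb3 ran from 0.0017 to 0.148 and that of Ddit4 from 0.0124 to 0.183, and the log2 fold changes from 1.07 to 1.38 and from -0.91 to -0.63. Skeletal muscle markers summed to 6058 and 3373 CPM in oral KO tumors 1 and 2 and to 24.8 to 665 CPM in the oral WT tumors, with 2 of 20 called higher, 12 higher at an unadjusted p under 0.05 and 6 by DESeq2. Over all genes tested, 35.4% had an unadjusted p under 0.05 in either direction. Of 10 fibroblast markers 3 were called lower, and of 12 myeloid markers 1 was called lower, with 5 lower at an unadjusted p under 0.05 and 4 by DESeq2. Their part in these values was not tested.

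Of the 33 genes not called in the oral tumors, Eno2, Adm and Ldhb had the largest estimates. Eno2 was at 18.2, 9.27, 8.17 and 13.4 CPM in the WT and 17.5 and 40.4 CPM in the KO tumors (log2 fold change 1.31, SE 0.41, adjusted p = 0.0718), and oral KO tumor 1 lay within the WT range. Adm was at 8.81, 0.893, 1.08 and 6.02 CPM and 6.85 and 12.5 CPM (log2 fold change 1.2753, SE 0.92, adjusted p = 0.355). Ldhb was at 9.58, 20.5, 28.1 and 18.4 CPM and 10.3 and 5.50 CPM (log2 fold change -1.20, SE 0.49, adjusted p = 0.128). The groups overlapped in all 3. Both KO tumors lay above all WT tumors in 5 genes, Hk2, Pfkm, Pfkfb3, Car12 and Ankrd37, and below them in 2, Pdk1 and Ddit4, against 22.4% and 25.5% of all genes. The 11 genes of upper glycolysis had estimates from -0.31 to 1.20 on the log2 scale, the 9 of lower glycolysis from -1.20 to 1.31, the 4 transporters from -0.26 to 1.12, the 4 oxygen sensors from -0.24 to 0.33 and the 7 other hypoxia genes from -0.82 to 1.275.

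**Figure D4:**
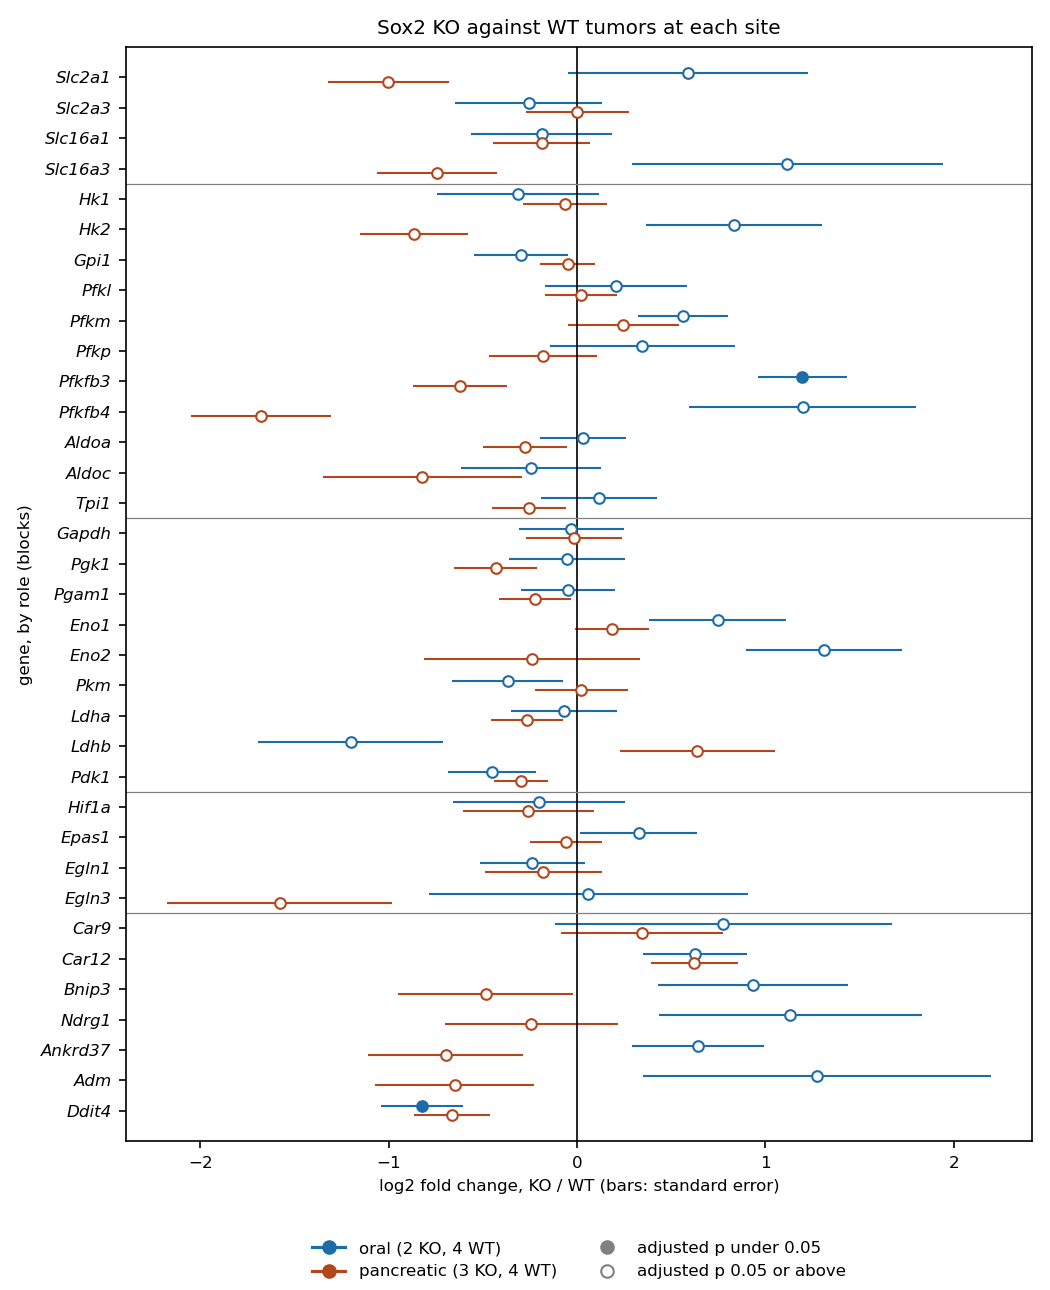
Log2 fold change of each of the 35 genes, Sox2 KO against WT (horizontal axis, bars are standard errors), in oral tumors (blue) and pancreatic tumors (brown), with filled points where the adjusted p was under 0.05. Filled points are Pfkfb3 and Ddit4 in the oral tumors, and no pancreatic point is filled.

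In the pancreatic tumors none of the 35 genes was called by edgeR, against 0.349% of all 24653 genes tested that were called higher and 0.357% called lower. At an unadjusted p under 0.05, 1 gene was higher and 7 were lower, against 15.9% of all genes in either direction, and DESeq2 called 1, Pfkfb4, as lower. Of the 35 estimates 27 were negative, with a median log2 fold change of -0.24 against 0.022 over all genes. Past 2-fold as well, 0 genes were called by edgeR, against 0.337% of all genes called higher and 0.292% called lower. The largest estimate was that of Pfkfb4, at 32.5, 29.7, 17.1 and 12.3 CPM in the WT and 6.48, 9.08 and 5.76 CPM in the KO tumors (log2 fold change -1.68, SE 0.37, adjusted p = 0.0911). All 3 KO tumors lay below all 4 WT tumors. Egln3 was at 567, 1276, 654 and 509 CPM and 216, 455 and 80.9 CPM, again with no overlap (log2 fold change -1.58, SE 0.60, adjusted p = 0.26). Slc2a1 was at 1612, 1446, 1221 and 746 CPM and 872, 570.2 and 431 CPM, with KO tumor 1 above WT tumor 4 (log2 fold change -1.0010, SE 0.32, adjusted p = 0.186). In 4 genes, Hk2, Pfkfb4, Egln3 and Ddit4, all KO tumors lay below all WT tumors, and in 0 genes above, against 8.75% and 6.8% of all genes.

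The 3 pancreatic KO tumors did not move together. Against the mean of the pancreatic WT tumors, KO tumor 3 had a median difference of -0.69 over the 35 genes on the log2(CPM + 0.5) scale, where KO tumors 1 and 2 had -0.17 and -0.023. Among the WT tumors, tumor 2 lay above that mean in 32 of the 35 genes, with a median of 0.34, and tumors 1, 3 and 4 lay below it in 27, 30 and 21 genes, with medians of -0.17, -0.15 and -0.034. KO tumors 1, 2 and 3 lay below it in 26, 18 and 31 genes. Without pancreatic WT tumor 4, Pfkfb4 was called (log2 fold change -1.89, adjusted p = 0.0427), and over the 15 alternatives its log2 fold change ran from -1.89 to -1.47. KO tumor 3 also held pancreatic acinar markers at 293 CPM, where the other pancreatic tumors had 4.24 to 16.7 CPM, and edgeR called 0 of 10 between KO and WT, with 2 higher at an unadjusted p under 0.05 and 0 by DESeq2. Fibroblast markers summed to 2356 to 3978 CPM in the KO and 1251 to 2423 CPM in the WT tumors, and of the 10 edgeR called 0, with 5 higher and 1 lower at an unadjusted p under 0.05 and 2 and 1 by DESeq2. The part of these markers was not tested. Within the hexokinases, the Hk2 share of CPM per kb was 36.9% to 43.9% in the pancreatic KO and 48.8% to 60.3% in the pancreatic WT tumors. It was 63.1% and 69.3% in the oral KO and 41.5% to 47.8% in the oral WT tumors, so that neither pair of groups overlapped. Among single genes, 22.4% and 25.5% lay wholly above or below in the oral KO tumors, and 6.8% and 8.75% in the pancreatic KO tumors. The Eno2 share also lay above in the oral KO tumors (6.11% and 6.24% against 2.56% to 5.07%). In the pancreatic tumors it overlapped (0.938% to 4.03% and 2.04% to 6.08%). Differences in these shares were not tested.

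The difference between the sites in the effect of Sox2 loss was tested in 1 fit of all 13 tumors. It was called for 2 of the 35 genes, Pfkfb3 and Pfkfb4, both with a larger KO minus WT difference in the oral tumors, against 7.71% of all 25836 genes called in that direction and 7.62% in the other. Both were past 2-fold as well, against 7.41% and 4.85% of all genes. In the same test 3 of 20 skeletal muscle markers were called in the positive direction, and 2 of 10 fibroblast, 1 of 12 myeloid and 1 of 6 squamous tumor markers in the negative direction, and their part in these values was not tested. For Pfkfb3 the difference between the sites was 1.75 on the log2 scale (SE 0.36, adjusted p = 0.0136). Its level was 61.4, 84.1, 59.4 and 73.9 CPM in the pancreatic WT and 40.7, 63.6 and 30.6 CPM in the pancreatic KO tumors, where the change itself was not called (log2 fold change -0.62, SE 0.25, adjusted p = 0.277). For Pfkfb4 the difference between the sites was 2.79 (SE 0.74, adjusted p = 0.0302). In the oral tumors Pfkfb4 was at 6.16, 8.84, 4.18 and 19.5 CPM in the WT and 27.1 and 14.7 CPM in the KO tumors (log2 fold change 1.20, SE 0.60, adjusted p = 0.201), and WT tumor 4 lay between the KO tumors.

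Pfkfb3 was called in all 20 alternatives of the difference between the sites, with an adjusted p of 0.000768 to 0.0433. Pfkfb4 was called in 14 of 20. Of the 6 losses 5 came without a tumor, namely oral WT tumor 2 (adjusted p = 0.0528), oral KO tumor 1 (0.105), pancreatic WT tumor 1 (0.0587), pancreatic KO tumor 1 (0.0593) and pancreatic KO tumor 3 (0.0724). Of the genes not called, Ldhb (-1.91, adjusted p = 0.0693), Adm (1.86, adjusted p = 0.232) and Slc16a3 (1.80, adjusted p = 0.196) had the largest differences on the log2 scale.

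**Figure D5:**
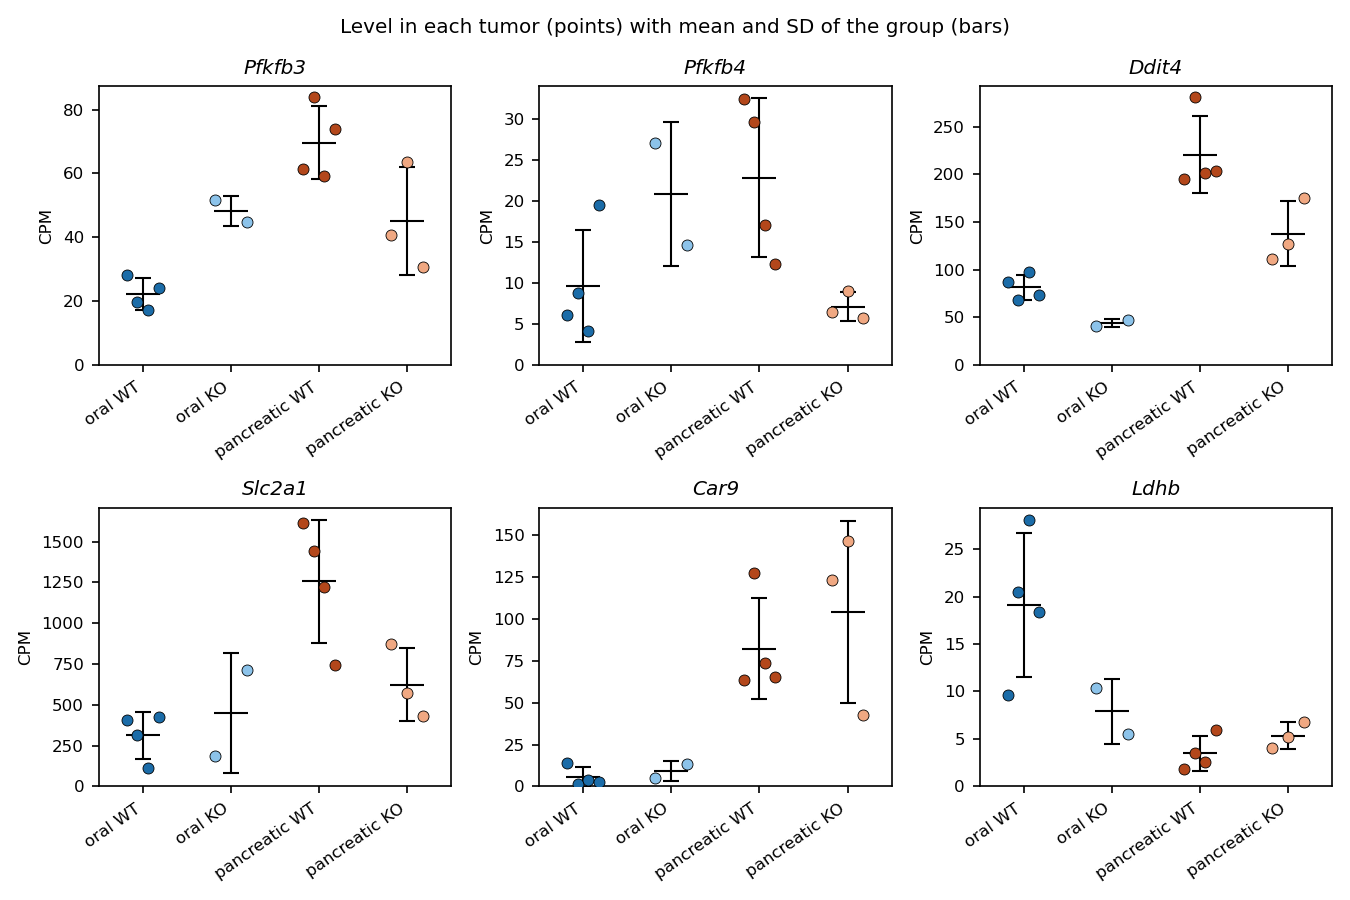
CPM of Pfkfb3, Pfkfb4, Ddit4, Slc2a1, Car9 and Ldhb (vertical axes, each from 0) in each tumor of the 4 groups (points), with the mean and SD of the group as bars. Pfkfb3 and Ddit4 show no overlap between the 4 oral WT and 2 oral KO tumors, and Car9 none between any oral and any pancreatic tumor.

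Levels of different genes were compared per kb of exon, and the ranks depend on the exon length used for each gene. Pkm, Pgam1, Aldoa and Ldha were the 4 highest of the 35 genes by median in the oral WT tumors on the counts as deposited, at 179, 178, 156 and 146 CPM per kb, and their ranges overlapped. Gapdh ranked 5, but its place rests on how reads were split between it and its copies. In the pancreatic WT tumors Aldoa was first at 404 CPM per kb (399 to 498), followed by Slc2a1 at 380.3 (213 to 460) and Pgk1 at 337 (321 to 452), again with overlapping ranges. The lowest by median were Car9 in the oral WT tumors, at 1.36 CPM per kb (0.695 to 6.17), and Slc2a3 in the pancreatic WT tumors, at 0.591 (0.536 to 0.746). Car9 ranked 20 of 35 in the pancreatic WT tumors and 35 in the oral WT tumors, and Ldhb ranked 20 in the oral WT and 34 in the pancreatic WT tumors.

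Some of these genes share sequence with near-identical copies, and their counts depend on how reads were split between them. With the 13 genes that hold at least 20% of its 31-base sequences, Gapdh kept 31.1% to 45.7% of the summed counts in the oral WT and 32.8% to 36.1% in the pancreatic WT tumors. Its level is uncertain. Eno1 kept 49.4% to 52.7% and 54.2% to 54.6% beside its 2 copies, of which Eno1b had the more counts. In the oral KO tumors Gapdh kept 43.5% to 69.8% and Eno1 74.5% to 99.9%. In the pancreatic KO tumors Gapdh kept 45.5% to 53.1% and Eno1 46.9% to 60.7%. With copies summed, Gapdh was at 1152 to 1997 CPM in the oral WT and 2138 to 3519 CPM in the pancreatic WT tumors, and Eno1 at 424 to 744 and 998 to 1579 CPM, so that neither pair of groups overlapped. Eno1 with copies summed was at 403 to 711 CPM in the oral KO tumors, with a median of 557 CPM against 636 CPM in the oral WT tumors. Its oral KO against WT estimate on the counts as deposited (log2 fold change 0.75, not called) therefore rests on the split. Gapdh with copies summed was at 725 to 1179 CPM in the oral KO tumors and 1287 to 2149 CPM in the pancreatic KO tumors. Both ranges reached only just into those of the WT tumors, from below. The KO against WT estimates of Gapdh as deposited (log2 fold change -0.029 in the oral and -0.014 in the pancreatic tumors, not called) therefore rest on the split as well. Pgam1, with 1 copy, kept 100% in every tumor. Pgk1, with 2 copies, kept 96.7% to 100% in the oral WT and 89.2% to 100% in the pancreatic KO tumors, and 100% in the others. Ldhb, with 1 copy, kept 70.3% to 93.4% in the oral WT and 86.2% to 100% in the pancreatic WT tumors. In the KO tumors it kept 100% in the oral and 67.8% to 83.2% in the pancreatic group. With copies summed, the oral KO against WT log2 fold change of Ldhb was -1.46 where it was -1.20 as deposited, and neither was called.

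Other genes of the same pathways were counted for comparison. Between oral WT and pancreatic WT tumors, 14 of 40 other hypoxia genes tested were lower and 3 were higher, and of 37 other glycolysis genes 7 were lower and 6 higher, against 11.6% and 12.1% of all genes. Of the hypoxia genes Bnip3l (log2 fold change -1.31, adjusted p = 0.00135), Fam162a (-1.79, adjusted p = 0.0014) and Kdm3a (-0.89, adjusted p = 0.00206) had the smallest adjusted p. Of the glycolysis genes these were the liver pyruvate kinase gene Pklr (0 to 0.023 CPM in the oral WT and 0.934 to 6.64 CPM in the pancreatic WT tumors, adjusted p = 0.0011), the glycogen phosphorylase gene Pygl (-1.60, adjusted p = 0.00162) and the pyruvate dehydrogenase kinase gene Pdk4 (3.00, adjusted p = 0.0034). Between oral KO and WT tumors 0 of 36 other glycolysis and 0 of 40 other hypoxia genes were called by edgeR, against 9.2% of all genes called higher and 4.58% called lower. At an unadjusted p under 0.05, 4 glycolysis genes were higher and 8 lower, and 4 hypoxia genes were higher and 1 lower. Over all genes tested, 35.4% had an unadjusted p under 0.05 in either direction. DESeq2 called 1 glycolysis gene higher and 4 lower, and 1 hypoxia gene higher and 1 lower. This comparison shares its WT tumors with that of the sites. In the pancreatic tumors edgeR called 0 of 38 glycolysis and 1 of 40 hypoxia genes, the latter being Anxa1 (-1.19, adjusted p = 0.0086). Of all genes 0.349% were called higher and 0.357% lower. At an unadjusted p under 0.05, 2 of the 38 glycolysis genes were higher and 2 lower, with 0 and 1 by DESeq2. Of the 40 hypoxia genes 1 was higher and 5 were lower, with 0 and 2 by DESeq2. Over all genes tested, 15.9% had such a p in either direction. In the difference between the sites 1 glycolysis gene was called in the positive and 4 in the negative direction of 39, led by Pdha1 (-0.72, adjusted p = 0.0283), Tigar (-1.08, adjusted p = 0.045) and Pygm (3.32, adjusted p = 0.0479). Of 40 hypoxia genes 2 were called in each direction, where 7.71% of all genes were called in the positive and 7.62% in the negative direction. The hypoxia genes were led by Egln2 (-0.86, adjusted p = 0.0204), Kdm3a (1.00, adjusted p = 0.0273) and Anxa1 (1.44, adjusted p = 0.0303).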

How the data were processed

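RNA of 13 tumors was extracted with RNeasy and sequenced after ribosomal RNA depletion with a stranded kit. The deposited values are estimated counts per gene, which the authors made with Trim Galore 0.6.10, FastQC 0.12.1, kallisto 0.50.0 and tximport on GENCODE M23 (GRCm38). Of all values 27.29% were not whole, and counts were rounded. Of 56085 rows 753 had no values. Symbols, positions and exon lengths came from GENCODE M21.

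Genes that reached 10 counts in 2 or more of the tumors compared were scaled by TMM and tested with edgeR 4.0.16 (R 4.3.3), by the robust quasi-likelihood test with Benjamini-Hochberg adjustment over all genes tested. A gene was called at an adjusted p under 0.05. SE is the log2 fold change divided by the square root of F. CPM used TMM over all 13 tumors. Alternatives were DESeq2 1.42.0, its size factors, no filter, protein-coding genes alone, tumor number as a block, counts summed over near-identical copies, thinning to equal depth, 1 fit of all tumors, a 2-fold threshold and leaving out each tumor. The scripts were tested on simulated data.

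Called genes, and the 3 genes not called with the largest log2 fold change, are given for each comparison, and of other pathway genes the 3 called with the smallest adjusted p. For the added comparison of KO tumors only some called genes have values. The members and lists were chosen with earlier results of these data known. Groups came from the labels. Depth limits genes of few counts, and every one of the 35 genes had at least 29 counts in each tumor.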

Additional observations from a re-analysis of the deposited data

Results flagged for a closer look

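Of 70 groups of 4 WT tumors examined, 1 for each of the 35 genes at each site, 9 held a tumor far from the other 3. About 1 in 20, or 3.5 of 70, would by chance if the groups were independent. The 35 genes were measured in the same tumors, so that no excess over chance can be read from the 9. In 6 of the 9 the outlying tumor was pancreatic WT tumor 2, with the highest level of Slc16a1 (136 CPM), Hk2 (254 CPM), Aldoa (1451 CPM), Car9 (127 CPM), Bnip3 (433 CPM) and Ddit4 (281 CPM). The same tumor lay above the mean of the 4 pancreatic WT tumors, itself included, in 32 of the 35 genes. In the oral WT tumors the values were 20.2 CPM of Slc2a3 in tumor 3, the highest of its group, and 83.0 CPM of Slc16a1 in tumor 4 and 53.5 CPM of Car12 in tumor 2, both the lowest of theirs.

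The KO minus WT difference was larger in oral than in pancreatic tumors for Pfkfb3, by 1.75, and for Pfkfb4, by 2.79 on the log2 scale, both past the test of the difference itself (adjusted p = 0.0136 and 0.0302, edgeR). They are 2 of the 35 genes, where 7.71% of all 25836 genes tested were called in that direction. The call of Pfkfb4 did not hold in every alternative.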

How the results depend on the processing

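Between the WT tumors of both sites, the direction of all 35 genes held in the 17 settings tried, and 23 genes were called in every setting that gave an adjusted p. DESeq2 gave none for Car9. Without 1 tumor, the count of genes lower in the oral WT tumors ran from 21 to 26 and that of higher genes from 2 to 4. With the KO tumors in place of the WT tumors, an alternative chosen after seeing the data, 16 were lower and 1 higher, and 3 genes changed sign on the log2 scale, Pfkfb3 (0.0456), Pfkfb4 (1.5003) and Eno2 (0.47, not called at either genotype). The cause was not tested, and the tumors are fewer.

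In oral KO against WT tumors, the count of genes called higher was 0 with protein-coding genes alone, 0 with the replicate block and 2 with DESeq2. The count of genes called lower was 0 with protein-coding genes alone, with the replicate block, after thinning to equal depth and past 2-fold. Without 1 tumor these counts ran from 0 to 2 and stayed at 0. In pancreatic KO against WT tumors, the count of lower genes was 1 with DESeq2 and 3 with the replicate block (Slc2a1, Hk2 and Pfkfb4), and it ran from 0 to 1 without 1 tumor, where the count of higher genes stayed at 0. For the difference between the sites, the positive count was 1 with the replicate block and ran from 1 to 3 without 1 tumor. The negative count was 1 with DESeq2 and 1 with copies summed, Ldhb in both (log2 difference -1.96 and -2.40), and ran from 0 to 1 without 1 tumor. The cause of these changes was not tested. Where leaving out a tumor left 1 in a group, its spread was taken from the other groups.

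No pairing of the tumors by number was seen, but groups of 2 to 4 tumors make this a weak check. With 2 oral KO tumors, the deviations from the group mean are equal and opposite. Deviations of same-numbered tumors from their group means correlated at -0.08 to -0.0383 in the oral, -0.069 to 0.317 in the pancreatic and -0.0734 to 0.0284 between the WT tumors, and 0 of 2, 1 of 3 and 0 of 4 tumors correlated best with their own number.

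The oral KO group has 2 tumors and the smallest libraries, and each of the 35 genes had at least 29 counts in every tumor.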

Other observations

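Among the other glycolysis genes, 5 were higher and 8 lower in the oral KO than in the pancreatic KO tumors, of 39 tested, and among 40 other hypoxia genes 1 was higher and 6 lower, where 15.3% of all genes were called higher and 16.3% lower. The higher genes include Pygm, the muscle glycogen phosphorylase (log2 fold change 4.79, adjusted p = 0.00804), and Pdk4 (3.35, adjusted p = 0.0113), a pyruvate dehydrogenase kinase. The level of Pygm ran from 7.14 to 28.9 CPM in oral KO and was 0.52 to 0.718 CPM in the pancreatic KO tumors, and skeletal muscle markers summed to 6058 and 3373 CPM in the oral KO and 13.5 to 17.6 CPM in the pancreatic KO tumors. Their part in these values was not tested. These genes were chosen after their values were seen.

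The 35 genes took 0.513% to 0.839% of all counts in the oral WT tumors, 0.410% and 0.932% in the oral KO tumors, 1.16% to 1.67% in those of the pancreas with Sox2, and 0.926% to 1.48% without it.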
